A study of Mus musculus with 29 samples.

Results

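Fc receptors bind the constant part of antibodies and let microglia, the macrophages of the brain parenchyma, take up antibody-coated material. In the mouse the activating receptors Fcgr1 (FcγRI, which binds monomeric IgG with high affinity), Fcgr3 and Fcgr4 signal through Fcer1g, the common γ-chain that carries the activation motif, whereas Fcgr2b is the inhibitory receptor and signals through its own inhibitory motif. Their balance sets how strongly a macrophage answers to immune complexes. The 5 genes were chosen by symbol and looked up among the 48709 Ensembl identifiers of each count table, and all 5 were found and passed the filter on low counts in each experiment. They were Fcgr1 (ENSMUSG00000015947), Fcgr3 (ENSMUSG00000059498), Fcgr4 (ENSMUSG00000059089), Fcgr2b (ENSMUSG00000026656) and Fcer1g (ENSMUSG00000058715).

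RNA was sequenced in 29 libraries of 3 experiments, which asked how gene expression answers when the microRNA miR-99b-5p is inhibited. In the first, C57BL/6J mice aged 3 months were injected with lipid nanoparticles that held anti-miR-99b (3 mice) or sc-control (3 mice), and the prefrontal cortex (PFC) was taken 5 days later. The inhibitor is an oligonucleotide of locked nucleic acids directed at miR-99b-5p, and sc-control is its negative control. In the second, primary microglia of CD1 pups at postnatal day 1 were exposed for 48 h to anti-miR-99b (4 libraries) or sc-control (4 libraries). In the third, cortical neurons of CD1 embryos (embryonic day 17.5) were kept for 48 h with microglia of pups at postnatal day 1. These microglia had beforehand been exposed for 48 h to anti-miR-99b (7 libraries) or sc-control (8 libraries). All mice were wild type, and since these polyadenylated RNA libraries were not used to measure mature microRNAs, the inhibition was not checked in them. The paper reports lower miR-99b-5p by quantitative PCR in PFC and primary microglia given the inhibitor. The culture labels do not say which libraries came from separate cultures, so p-values there measure the spread between libraries, which may be technical.

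The gene counts of a library summed to 24482309 to 36475236 for the PFC, 21324156 to 35013400 for the microglia and 23269839 to 37901110 for the co-cultures. The summed levels of microglia and neuron markers followed the labels. The summed level of 20 microglia markers in sc-control libraries was 18574 to 19450 CPM (counts scaled to library size, with TMM factors) in the microglia, 848 to 1166 CPM in the PFC and 216 to 267 CPM in the co-cultures, with no marker at 0 in all libraries of an experiment. Siglech (0.18 CPM in sc-control microglia, 19.1 CPM in sc-control PFC) and Tmem119 (15.3 and 29.7 CPM) were higher in the PFC, and the other markers were lower there. The 10 neuron markers summed to 136 to 145 CPM in sc-control microglia and to 8073 to 8390 CPM in sc-control co-cultures. The 10 astrocyte markers summed to 306 to 342 CPM in sc-control microglia and to 2703 to 2917 CPM in sc-control co-cultures. In these bulk samples, more microglia and more RNA of a gene per microglial cell cannot be told apart.

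In mm10 (GRCm38, GENCODE M21) 4 of the 5 genes lie together on chromosome 1 within 275.749 kb, in the order Fcgr2b (chr1:170958617-170976547, minus strand), Fcgr4 (chr1:171018920-171029761, plus strand), Fcgr3 (chr1:171051174-171064935, minus strand) and Fcer1g (chr1:171229572-171234365, minus strand). Fcgr1 lies apart at chr3:96282909-96293969 on the minus strand. Fcgr2b and Fcgr3 are near copies over part of their length: 10.7% of the 50-base stretches of Fcgr2b transcripts occur in other genes, Fcgr3 among them, and 10.2% of those of Fcgr3 occur in Fcgr2b, so a small part of their reads could not be assigned to either. No 50-base stretch of Fcgr1, Fcgr4 or Fcer1g occurs in another gene. The antisense gene Gm38204 shares 155 exon bases with Fcgr2b (2.68% of its exon length). The kit does not keep the strand of a read, so reads of these bases cannot be told apart. Mir6546 and the small nuclear RNA gene Gm26110 lie in introns of Fcgr3 and Fcgr4 and share 0 exon bases with them.

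The microRNA is shown first because a direct target usually carries its site. A microRNA pairs with its targets mainly through bases 2 to 8, the seed, given here in capitals, in the RefSeq sequence (GRCm38.p6, chr17:17830194-17830215, plus strand).
miR-99b-5p: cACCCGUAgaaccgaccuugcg
The 7-base complement of the seed, TACGGGT, occurred in 0 of the 5 longest transcripts, and it occurs in the 3′ untranslated region of 1.1% of 21015 coding genes. The shorter 6-base complement ACGGGT occurred once, in the 3′ untranslated region of Fcgr2b (position 3172 of the transcript ENSMUST00000027966.13, capitals below), as it does in 5.47% of coding genes. No match says only that these letters are not in these transcripts.
Fcgr2b site: gccgtggttgcACGGGTccatccttgtg

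Promoters are shown for the pair of receptors whose groups did not overlap in the microglia (Fcgr1 and Fcgr4, described below) and, for comparison, for the inhibitory receptor. Each line holds the 120 bases before the RefSeq start of the gene (GRCm38.p6), read in the direction of the gene. Capitals mark matches to 3 motifs searched on both strands over 250 bases: the GAS element bound by STAT dimers (TTCNNNGAA), the interferon-stimulated response element, ISRE (GAAA, any 2 bases and GAAA), and a PU.1 element (GAGGAA, or TTCCTC on the other strand).
Fcgr1, chr3:96293970-96294089, minus strand: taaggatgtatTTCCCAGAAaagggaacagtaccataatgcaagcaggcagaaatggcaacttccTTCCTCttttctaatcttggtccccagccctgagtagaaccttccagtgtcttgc
Fcgr4, chr1:171018806-171018925, plus strand: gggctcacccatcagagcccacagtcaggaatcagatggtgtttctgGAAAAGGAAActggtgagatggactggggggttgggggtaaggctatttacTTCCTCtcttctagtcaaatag
Fcgr2b, chr1:170976072-170976191, minus strand: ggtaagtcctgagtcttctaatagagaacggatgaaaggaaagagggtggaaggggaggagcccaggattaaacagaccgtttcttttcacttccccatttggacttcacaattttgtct
The Fcgr1 promoter held a GAS match (TTCCCAGAA, 109 bases before the start) and a PU.1 match. The Fcgr4 promoter held an ISRE match (GAAAAGGAAA, 73 bases before the start) and a PU.1 match. Fcgr3 held only a PU.1 match, directly before its start, and Fcgr2b and Fcer1g held none of the 3 in this window. The windows of Fcgr2b and Fcgr3, set by the RefSeq start, lie inside the GENCODE spans of these genes given above. Bases before the upstream ends of these spans were not searched. Of 32851 mouse promoters of this length, 7.02% held the GAS letters, 2.98% the ISRE letters and 23.3% the PU.1 letters. These matches are descriptions of the sequence and not binding sites.

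The baseline was read from the sc-control libraries per exon length (FPKM, CPM divided by the length of all exons of a gene in kb). For Fcgr2b this length was 5790 bases, against 3544 in its longest transcript. For Fcgr3 it was 1736 against 1347 and for Fcer1g 874 against 683, while both lengths were equal for Fcgr1 and Fcgr4. The level of Fcgr2b beside the other genes therefore depends on the length used. In the microglia the order was Fcer1g (951 ± 30.1 FPKM, SD, n = 4), Fcgr3 (198 ± 6.01), Fcgr1 (61.0 ± 2.83), Fcgr2b (37.2 ± 1.13) and Fcgr4 (26.4 ± 1.03). With these lengths, no neighbours in this order overlapped between libraries. Fcgr3 thus made up 61.4% ± 0.92 of the summed FPKM of the 4 receptors in the microglia.
In the PFC Fcer1g (15.7 ± 2.81 FPKM, n = 3) and Fcgr3 (11.7 ± 2.09) led. Their ranges of 13.5 to 18.9 and 10.2 to 14.1 FPKM overlapped. Fcgr1 followed at 2.85 ± 0.85, then Fcgr2b at 1.24 ± 0.23 and Fcgr4 at 0.88 ± 0.37 FPKM, the last of which overlapped with each other. Fcgr3 was again the main receptor of the PFC, with 70.5% ± 2.10 of the receptor sum.
The co-cultures had another order. Fcer1g stood at 21.4 ± 2.08 FPKM (n = 8), while Fcgr3 (0.97 ± 0.23), Fcgr4 (0.93 ± 0.20) and Fcgr1 (0.80 ± 0.19) overlapped in range and Fcgr2b was lowest (0.26 ± 0.04). The receptor sum of the co-cultures was split nearly evenly between Fcgr3 (32.6% ± 7.20), Fcgr4 (31.7% ± 7.06) and Fcgr1 (26.8% ± 4.87), whereas Fcgr4 held 8.16% ± 0.26 in the microglia and 5.16% ± 1.26 in the PFC. The experiments differ in mouse strain, age, cell mix and culture, so these levels are given side by side and without a test.

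**Figure D1:**
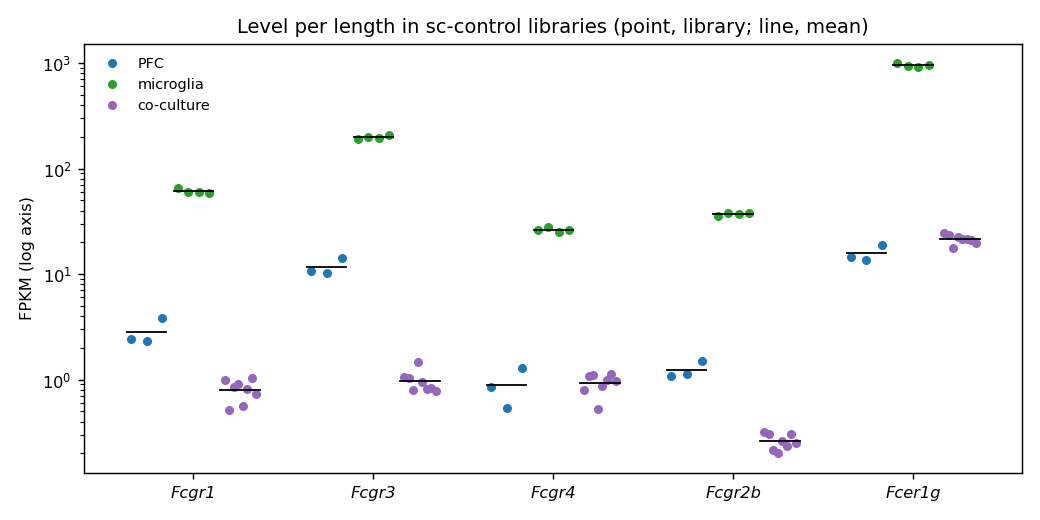
Level of each gene per exon length (FPKM, log axis) in the sc-control libraries of the PFC (n = 3), microglia (n = 4) and co-cultures (n = 8). Points are libraries and lines are means. The microglia lie highest for every gene, and Fcer1g lies far above the receptors in the co-cultures, at 17.5 to 24.3 FPKM against at most 1.47 FPKM for a receptor.

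Set against the microglia cultures, the 5 genes were not diluted alike in the mixed samples. In sc-control PFC the mean CPM was 5.91% of that in sc-control microglia for Fcgr3, 4.67% for Fcgr1, 3.36% for Fcgr4, 3.32% for Fcgr2b and 1.65% for Fcer1g. In sc-control co-cultures it was 3.55% for Fcgr4 and 2.25% for Fcer1g, against 1.31% for Fcgr1, 0.70% for Fcgr2b and 0.49% for Fcgr3. The 19 microglia markers with at least 1 CPM in the microglia had a median of 4.28% in the PFC (0.80 to 194) and of 1.02% in the co-cultures (0.28 to 77.9), so all 5 genes lay within the range of the markers in both.

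Fcer1g shares its role with Tyrobp (DAP12), the other signalling chain of microglial receptors. The ratio of Fcer1g to Tyrobp in CPM was 0.61 ± 0.0026 (SD, n = 4) in sc-control microglia and 0.62 ± 0.029 (n = 3) in sc-control PFC, but 2.16 ± 0.23 (n = 8) in sc-control co-cultures. The lowest co-culture library (1.92) lay above the highest of the others (0.65).

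In the PFC, all 5 genes had higher mean levels after anti-miR-99b and none passed the threshold (adjusted p-value under 0.1 and log2 fold change, log2FC, beyond 0.2; edgeR quasi-likelihood test with Benjamini-Hochberg adjustment over all genes). The threshold was passed upwards by 0.0864% of 17364 genes, and a log2FC above 0 was found for 50.6% of them. Their median log2FC was 0.39, beside 0.0025 over all genes tested.
Fcgr1, the high-affinity receptor, was at 8.90, 10.2 and 10.5 CPM after anti-miR-99b and at 6.23, 5.99 and 9.90 CPM in sc-control (log2FC 0.42 ± 0.18 SE, adjusted p = 0.649). Only sc-control replicate 4 reached into the anti-miR-99b range.
Fcgr4, which binds IgG2 subclasses, was at 1.80, 1.82 and 1.64 CPM against 1.06, 0.67 and 1.60 CPM (log2FC 0.64 ± 0.27, adjusted p = 0.649), with 19 to 55 reads per library. The inhibitory Fcgr2b was at 9.19, 9.83 and 8.91 CPM against 6.26, 6.52 and 8.71 CPM (log2FC 0.38 ± 0.14, adjusted p = 0.639). For these 2 genes the groups did not overlap, as for 7.52% of all genes in this direction, and the highest sc-control library again was replicate 4.
Fcgr3 was at 22.3, 24.9 and 23.4 CPM against 18.8, 17.8 and 24.5 CPM (log2FC 0.21 ± 0.12, adjusted p = 0.675). The γ-chain Fcer1g was at 19.4, 19.2 and 15.5 CPM against 12.8, 11.8 and 16.5 CPM (log2FC 0.39 ± 0.14, adjusted p = 0.611). Both ranges overlapped through sc-control replicate 4.
At an unadjusted p-value under 0.05, 4 of the 5 genes were higher by edgeR, as were 5.17% of all genes, and DESeq2 also called 0 of the 5 (0.49% of all genes upwards). Exact permutation tests of the CPM (two-sided) gave p = 0.1 for Fcgr4 and Fcgr2b, which is the smallest p that 3 against 3 allows.

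Sc-control replicate 4 also lay with the treated libraries in its microglia markers. The geometric mean of the 20 microglia markers was 41.2 CPM in this library, within the 38.5 to 42.9 CPM of the anti-miR-99b libraries, and 31.8 and 30.8 CPM in sc-control replicates 2 and 3. Within lane 6 (2 against 2 libraries), all 5 genes lay higher in both anti-miR-99b libraries, as did 23.4% of all genes. The other library of its lane 7, anti-miR-99b replicate 3, was the lowest treated library for Fcgr4, Fcgr2b and Fcer1g, and within that lane (1 against 1) 3 genes were higher and 2 lower. With the lane as a block the log2FC of Fcgr1 was 0.44 (adjusted p = 0.276). Without sc-control replicate 4 the log2FC of Fcgr1 was 0.69 (adjusted p = 0.0512) and it passed the threshold, as did 1.11% of all genes upwards. The log2FC of the other genes then lay between 0.37 for Fcgr3 and 0.99 for Fcgr4. Of the microglia markers 18 of 20 had a log2FC above 0 (median 0.26, 0 past the threshold). Scaled on these markers in place of all reads, which lowered the median log2FC of all genes to -0.25, the log2FC was 0.43 for Fcgr4, 0.20 for Fcgr1, 0.17 for Fcer1g, 0.15 for Fcgr2b and -0.02 for Fcgr3, with 0 of 5 past the threshold (0.311% of all genes passed it upwards). The 10 neuron markers lay the other way, with 1 of 10 above a log2FC of 0 (median -0.07, 0 past the threshold), and their mean log2 CPM was 9.20 to 9.21 after anti-miR-99b and 9.25 to 9.30 in sc-control (exact permutation test, two-sided, p = 0.1). Other immune cells carry these receptors too, and the summed neutrophil markers were at 1.14 to 2.43 CPM after anti-miR-99b and at 0.81 to 1.48 CPM in sc-control, the B cell markers at 1.35 to 2.11 and at 0.93 to 1.20 CPM, and the markers of border macrophages and monocytes at 14.2 to 15.5 and at 11.7 to 17.0 CPM. Their part in the result was not tested.

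**Figure D2:**
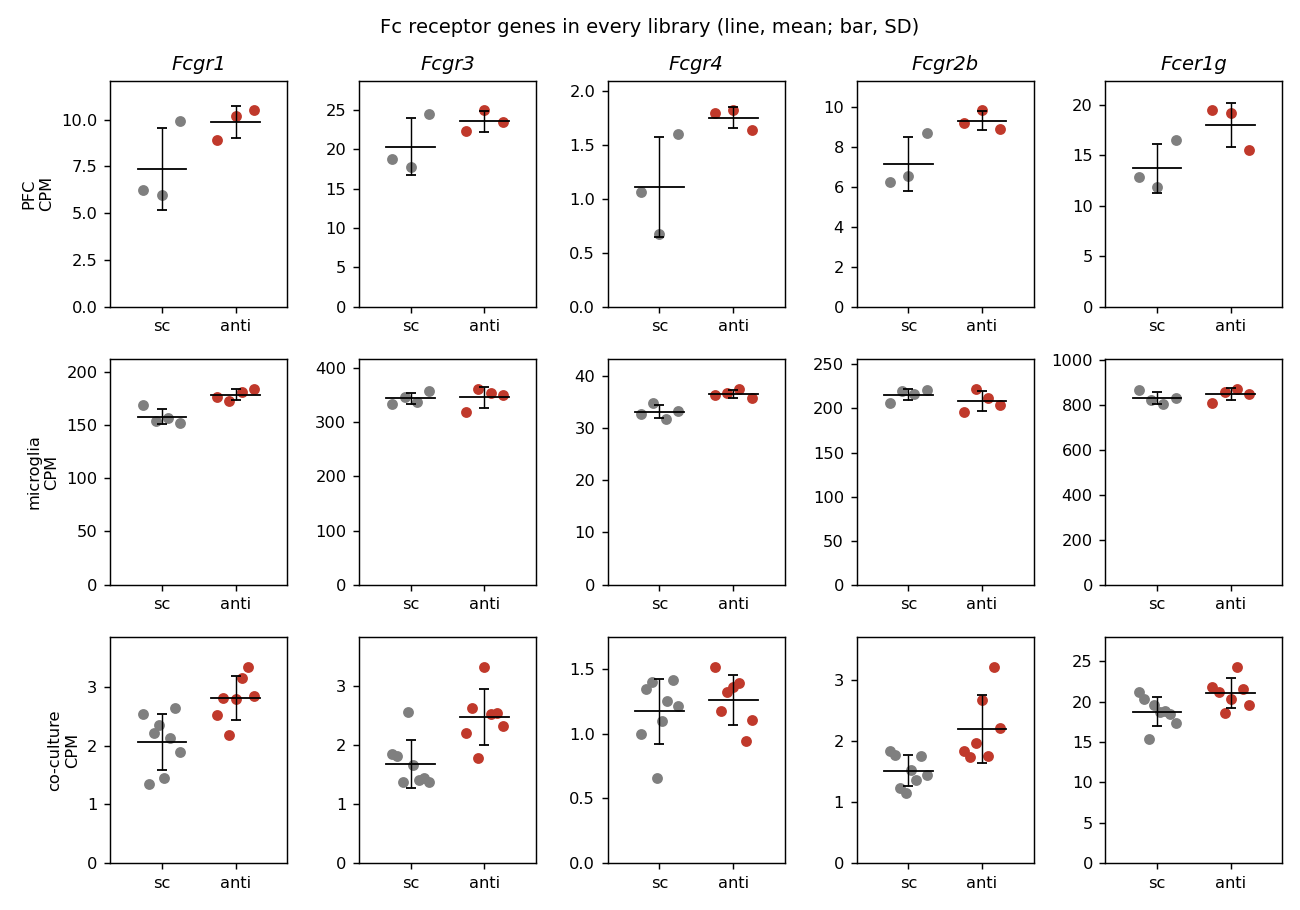
CPM of the 5 genes (columns) in every library of the PFC, microglia and co-cultures (rows), for sc-control (grey) and anti-miR-99b (red); lines are means, bars SD, and every axis starts at 0. In the PFC 1 sc-control library lies near the anti-miR-99b libraries for each gene, and in the microglia Fcgr1 and Fcgr4 are separated between the groups while Fcgr3, Fcgr2b and Fcer1g overlap.

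In the microglia, Fcgr1 rose after anti-miR-99b while Fcgr2b, Fcgr3 and Fcer1g had log2FC between -0.05 and 0.03. Fcgr1 was at 177, 172, 181 and 184 CPM after anti-miR-99b and at 168, 154, 157 and 152 CPM in sc-control, so that each treated library lay above each control. The difference was 13.2%, or a log2FC of 0.18 ± 0.033 (95% interval 0.11 to 0.25, adjusted p = 0.0232). It was the gene with rank 11 by p-value of 14953 genes, of which 0.435% passed the threshold upwards (adjusted p-value under 0.1 and log2FC beyond 0.1).
Fcgr4 was also separated, at 36.3, 36.6, 37.5 and 35.7 CPM against 32.6, 34.9, 31.8 and 33.2 CPM. Its log2FC was 0.14 ± 0.040 and it did not pass the threshold (adjusted p = 0.227, unadjusted p = 0.0018). Fcgr1 and Fcgr4 had the smallest exact permutation p that 4 against 4 libraries allow (0.0286, two-sided). Groups that did not overlap in this direction were found for 1.65% of all genes, and an unadjusted p-value under 0.05 with a higher level for 3.4%. A log2FC above 0 was found for 4 of the 5 genes and for 51.6% of all genes.

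The other 3 genes gave narrow intervals around 0 in the microglia. Fcgr2b was at 196, 222, 212 and 204 CPM against 206, 220, 216 and 221 CPM (log2FC -0.05, 95% interval -0.12 to 0.02). Fcgr3 was at 318, 362, 353 and 349 CPM against 334, 347, 338 and 358 CPM (log2FC 0.01, interval -0.07 to 0.08). Fcer1g was at 810, 859, 873 and 852 CPM against 867, 824, 803 and 832 CPM (log2FC 0.03, interval -0.03 to 0.09). All these ranges overlapped, and the median log2FC of the 5 genes was 0.03, beside 0.0025 over all genes.
Within each of the 2 lanes (2 against 2 libraries), Fcgr1 and Fcgr4 were higher in every anti-miR-99b library, as were 2.97% of all genes. For Fcgr1 and Fcgr4 this follows from their separation over all libraries and is not a further test. The call on Fcgr1 was lost without anti-miR-99b replicate 5 (adjusted p = 0.17), sc-control replicate 4 (0.165) or sc-control replicate 6 (0.163), with a log2FC between 0.16 and 0.21 whichever library was left out. In the fits that lost the call, 0.0132%, 0% and 0.0399% of all genes rose, in this order, against 0.435% with all libraries. Fcgr4 was called without sc-control replicate 2 (adjusted p = 0.085), where 1.55% of all genes rose. Scaled on the microglia markers, which had a median log2FC of 0.02 with 0 of 19 past the threshold, the log2FC of Fcgr1 was 0.15 (adjusted p = 0.311).

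In the co-cultures Fcgr3 rose, and Fcgr2b and Fcgr1 had log2FC of like size that missed the threshold (adjusted p-value under 0.05 and log2FC beyond 0.1, which 0.846% of 16193 genes passed upwards). Fcgr3, the low-affinity activating receptor, had a lowest, median and highest value of 1.77, 2.53 and 3.32 CPM after anti-miR-99b and of 1.36, 1.55 and 2.56 CPM in sc-control. Of the 8 sc-control libraries 5 lay below the lowest treated library. The change was 47.3%, with a log2FC of 0.56 ± 0.13 (95% interval 0.29 to 0.83, adjusted p = 0.0309).
Fcgr2b ranged from 1.74 to 3.22 CPM (median 1.97) after anti-miR-99b and from 1.16 to 1.83 CPM (median 1.49) in sc-control. Its log2FC was 0.50 ± 0.14 (adjusted p = 0.0625), and 5 of 7 treated libraries lay above all controls. Fcgr1 ranged from 2.19 to 3.35 CPM (median 2.82) against 1.34 to 2.65 CPM (median 2.17). Its log2FC was 0.41 ± 0.12 (adjusted p = 0.103), with 5 of 7 treated libraries above all controls.
Fcer1g ranged from 18.6 to 24.3 CPM (median 21.2) against 15.3 to 21.2 CPM (median 18.8), a log2FC of 0.17 ± 0.059 (adjusted p = 0.172). Fcgr4 ranged from 0.94 to 1.52 CPM (median 1.32) against 0.66 to 1.42 CPM (median 1.23), a log2FC of 0.09 with an interval from -0.19 to 0.37. The groups overlapped for all 5 genes, and 0.303% of all genes had treated libraries wholly above the controls. An unadjusted p-value under 0.05 with a higher level was found for 4 of the 5 genes and 6.4% of all genes, and a log2FC above 0 for 5 of the 5 and 51.6% of all genes.

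These levels rest on few reads, 36 to 78 per library for Fcgr3, 28 to 75 for Fcgr2b, 35 to 101 for Fcgr1 and 16 to 54 for Fcgr4, against 458 to 732 for Fcer1g. The call on Fcgr3 was lost with the lane as a block (log2FC 0.56, adjusted p = 0.0723) and without any 1 of 7 libraries, with adjusted p-values of at most 0.0724. These were sc-control replicates 4, 8, 11 and 12 and, of the treated libraries, replicates 3, 10 and 11. Of all genes, 0.525% rose with the lane as a block and 0.551% to 0.825% without 1 of these libraries, against 0.846% in the main fit. In the 8 libraries whose replicate number occurs in both groups, Fcgr3 had a log2FC of 0.32 both when these numbers entered the fit as a block (adjusted p = 0.665) and when they did not (0.548). Fcgr2b was called without sc-control replicate 1 (adjusted p = 0.0482, 0.905% of all genes rose) and Fcgr1 without sc-control replicate 11 (0.0499, 0.825%). DESeq2 called 3 genes, Fcgr3, Fcgr2b and Fcgr1, and 0.976% of all genes in this direction. Within lanes, Fcgr3 was higher after anti-miR-99b by 0.41 (lane 4, 2 treated libraries against 2 controls), 1.24 (lane 6, 1 against 1) and 0.81 (lane 7, 3 against 2) on the log2 scale and at -0.07 in lane 5, where 1 treated library faced 3 controls.

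The microglia markers moved with these genes in the co-cultures. Of 19 tested, 9 rose and 0 fell (median log2FC 0.25), among them Trem2, a lipid-sensing receptor that signals through Tyrobp (log2FC 0.70), Csf1r, the growth factor receptor of microglia (0.34), and the complement genes C1qa (0.34) and C1qc (0.33). Summed, they were at 261 to 292 CPM after anti-miR-99b and at 216 to 267 CPM in sc-control. Scaling on these markers lowered the median log2FC of all genes to -0.27. With it 0.303% of all genes passed the threshold upwards, and 12932 of 16193 passed it downwards. Fcgr3 then had a log2FC of 0.30 (adjusted p = 0.0226) and was still called. Fcgr2b had one of 0.24 (0.0698), Fcgr1 of 0.15 (0.222), Fcer1g of -0.10 (0.222) and Fcgr4 of -0.18 (0.268).

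**Figure D3:**
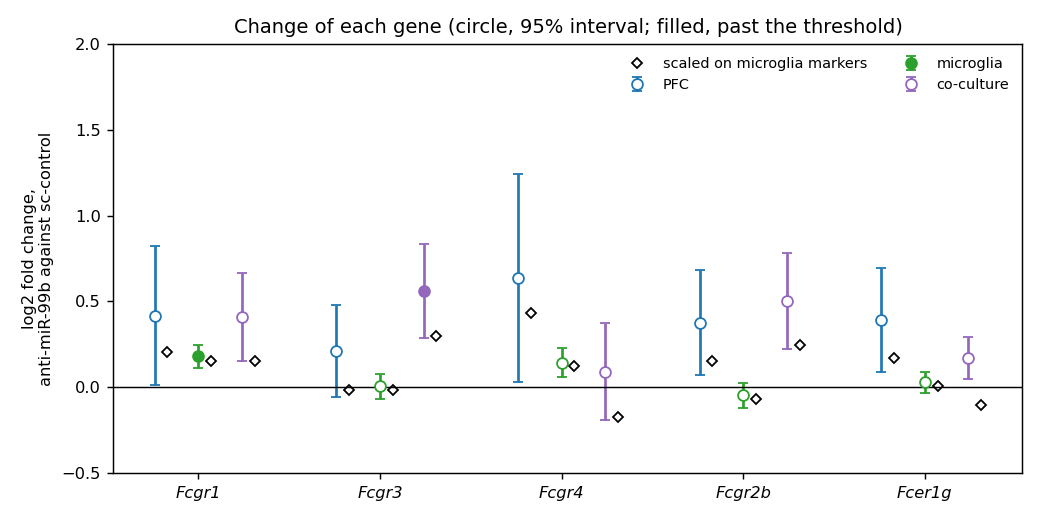
Log2 fold change of each gene after anti-miR-99b with its 95% interval in the PFC, microglia and co-cultures; filled circles passed the threshold and diamonds give the value when libraries were scaled on the microglia markers. Fcgr1 in the microglia (0.18) and Fcgr3 in the co-cultures (0.56) are filled, and in the PFC and co-cultures the diamonds lie below the circles.

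Whether the effect differed between the experiments was tested in a fit of all 29 libraries, which share 1 estimate of the spread. For Fcgr1 the SE of the difference between PFC and microglia was 0.146 in this fit. Its SE in the PFC fitted alone was larger, at 0.183, so the p-values of the PFC contrasts may be too small. Of 15 tests (5 genes in 3 pairs of experiments), 0 reached an adjusted p-value under 0.05 by edgeR, as did 0.469% of 18963 genes for the PFC against the microglia, 0.791% for the PFC against the co-cultures and 0.0844% for the microglia against the co-cultures. The lowest p-values were those of Fcgr2b and Fcgr3 between microglia and co-cultures. The log2FC of Fcgr2b was lower by 0.53 ± 0.15 in the microglia (unadjusted p = 0.0011, adjusted p = 0.317), and that of Fcgr3 was lower by 0.53 ± 0.15 (0.0013 and 0.329). In the PFC the log2FC of Fcgr2b exceeded that in the microglia by 0.41 ± 0.13 (unadjusted p = 0.0036, adjusted p = 0.165). By edgeR 7 of the 15 tests had an unadjusted p-value under 0.05. These were 3 of 5 for the PFC against the microglia (11.9% of all genes), 2 of 5 for the PFC against the co-cultures (15% of all genes) and 2 of 5 for the microglia against the co-cultures (5.49%). Scaled on the microglia markers, 2 of the 15 remained under 0.05. By pair they were 0 of 5 for the PFC against the microglia (17.7% of all genes) and 1 of 5 for the PFC against the co-cultures (5.42%). For the microglia against the co-cultures it was 1 of 5 (29.6% of all genes). The differences of Fcgr2b and Fcgr3 between microglia and co-cultures were then -0.32 each, and that of Fcgr2b between PFC and microglia 0.22. Limma on voom values also gave 0 adjusted ones. Without a filter on low counts, Fcgr2b (adjusted p = 0.0224) and Fcgr3 (0.015) differed between microglia and co-cultures, as did 0.153% of all genes.

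The balance of activating to inhibitory receptors was read as the summed FPKM of Fcgr1, Fcgr3 and Fcgr4 over that of Fcgr2b. Its level depends on the length used, with a mean of 7.67 in sc-control microglia and of 5.64 there with the longest transcript. In the microglia it was 8.27, 7.91, 8.29 and 8.54 after anti-miR-99b and 7.96, 7.57, 7.51 and 7.64 in sc-control. Only the lowest treated and the highest control library crossed. The mean log2 ratio was higher by 0.11 (exact permutation test, two-sided, p = 0.0571, adjusted over 3 experiments 0.171), and 4 against 4 libraries could have reached 0.0286. In the PFC the ratio was 11.7 ± 0.54 after anti-miR-99b and 12.5 ± 0.75 in sc-control (SD, n = 3 each), a log2 difference of -0.09 (exact permutation p = 0.3, where 0.1 is the smallest possible). In the co-cultures it ranged from 6.30 to 12.4 after anti-miR-99b and from 8.62 to 14.6 in sc-control, a log2 difference of -0.15 (exact permutation p = 0.352, n = 7 and 8). Without anti-miR-99b replicate 11 it was -0.05, and without Fcgr4 in the sum -0.02. The difference in the ratio reached an adjusted p-value under 0.05 in 0 of the 3 experiments.

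**Figure D4:**
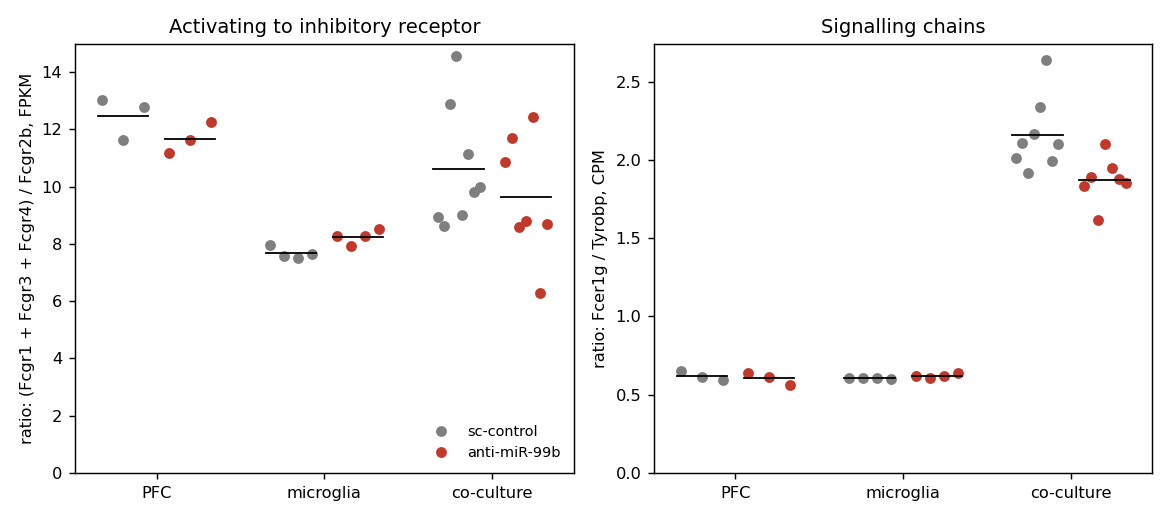
Left, ratio of the summed FPKM of Fcgr1, Fcgr3 and Fcgr4 to that of Fcgr2b; right, ratio of Fcer1g to Tyrobp in CPM; points are libraries of sc-control (grey) and anti-miR-99b (red) and lines are means. The left ratio overlaps between groups in each experiment, and the right ratio is near 0.6 in the PFC and microglia and between 1.62 and 2.64 in the co-cultures.

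The genes around the receptors were described by lists. Of the 18 genes of activating signalling (Src and Syk family kinases, adaptors and their partners), 0 of 17 tested passed the threshold in the PFC (median log2FC 0.33) and 0 of 17 in the microglia (0.02). In the co-cultures 1 of 16 rose (median 0.07). This was Tyrobp, at 11.3 ± 0.90 CPM after anti-miR-99b and 8.74 ± 1.08 CPM in sc-control (log2FC 0.37 ± 0.067, adjusted p = 0.0042). Syk, the kinase that binds the phosphorylated γ-chain, had a log2FC of 0.07 (PFC), 0.0029 (microglia) and 0.12 (co-cultures).
Of 10 inhibitory signalling genes 0 passed in the PFC or the microglia, and 1 fell in the co-cultures, the ubiquitin ligase Cbl (129.5 ± 3.66 to 119.7 ± 5.10 CPM, log2FC -0.11, adjusted p = 0.0309). Inpp5d (SHIP1), the phosphatase recruited by Fcgr2b, was at 22.6 CPM in sc-control PFC with a log2FC of 0.38 (adjusted p = 0.352), and had a log2FC of 0.03 (microglia) and 0.07 (co-cultures).
Of 13 genes of uptake and oxidative burst, 0 passed in the PFC (median log2FC 0.25) and in the microglia (0.02), and 3 rose in the co-cultures (0.05). All 3 encode parts of the phagocyte NADPH oxidase. Cybb, its catalytic subunit, was at 30.6 ± 3.34 against 23.2 ± 1.97 CPM (log2FC 0.40, adjusted p = 0.00053). Ncf1 and Cyba had a log2FC of 0.36 (adjusted p = 0.0084) and 0.30 (0.006).

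Of 8 transcription factors of macrophage and interferon-response promoters, 0 passed in the PFC (8 of 8 with a log2FC above 0, median 0.40) and 0 in the co-cultures (7 of 8, median 0.13). In the microglia 2 of 8 rose (8 of 8 with a log2FC above 0, median 0.07), among them Stat2, a part of the complex that binds ISRE. Stat2 was at 97.6 ± 12.9 CPM after anti-miR-99b and 78.2 ± 8.12 CPM in sc-control (log2FC 0.33 ± 0.070, adjusted p = 0.0405), and the groups overlapped. Spi1, which encodes PU.1, had a log2FC of 0.03 in the microglia, 0.14 in the co-cultures and 0.61 in the PFC (adjusted p = 0.443).
Of 10 other Fc receptors, 5 (PFC), 4 (microglia) and 4 (co-cultures) had enough reads to be tested, and 0 passed. Fcrls, a microglial Fc receptor-like gene, was at 1097 CPM in sc-control microglia (log2FC 0.03). The neonatal receptor gene Fcgrt was at 57.4 CPM there (log2FC 0.07). Trim21, a cytosolic antibody receptor, was at 30.8 CPM (log2FC 0.11, adjusted p = 0.771). Fcer1a, the IgE-binding chain that partners Fcer1g in mast cells, had 0 reads in every PFC and microglia library and at most 1 read in a co-culture library.

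**Figure D5:**
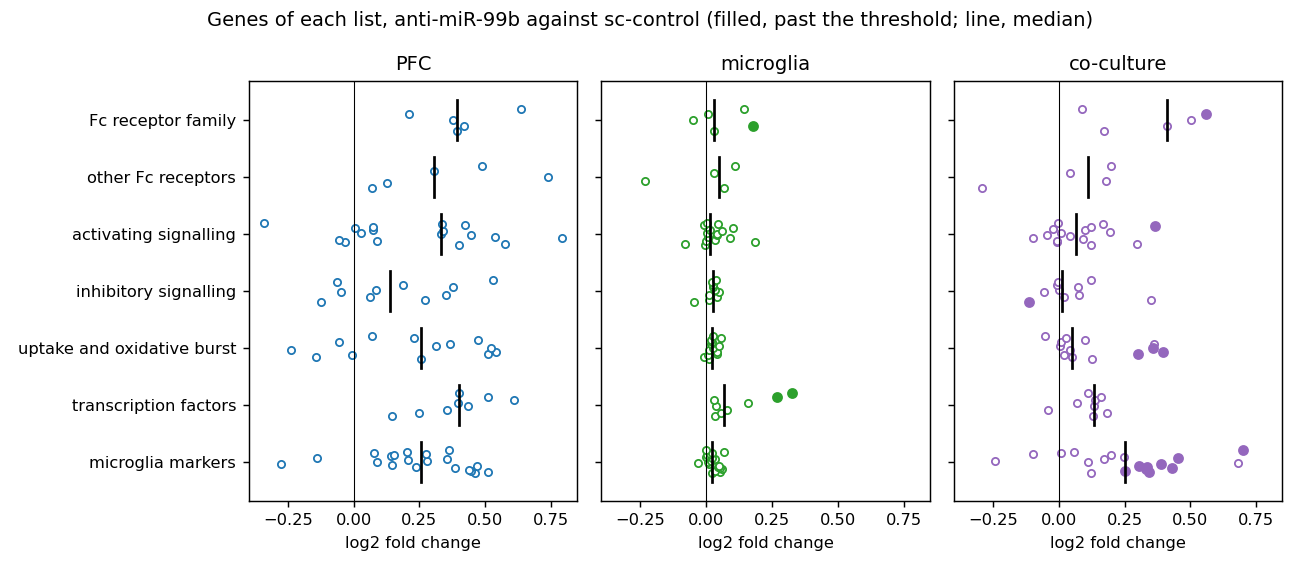
Log2 fold change after anti-miR-99b of the tested genes of each list in the PFC, microglia and co-cultures; filled circles passed the threshold and lines are medians. The Fc receptor medians are 0.39, 0.03 and 0.41, and those of the microglia markers 0.26, 0.02 and 0.25.

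Beyond the treatment, the genes were compared by how they deviated from their group means over the 29 libraries. Among 11808 genes with a mean of at least 1 CPM in each experiment, the 3 most like Fcer1g were C1qb (Pearson r = 0.85), C1qc (0.84) and Ncf4 (0.83). For the receptors they were Hpgd (0.74), Pstpip2 (0.74) and Grap (0.72) for Fcgr1, Cyp4v3 (0.74), Vsir (0.71) and Fxyd5 (0.70) for Fcgr3, Entpd1 (0.71), Nr2f2 (0.68) and Cdc14b (0.66) for Fcgr4, and Tanc1 (0.67), Klhl6 (0.65) and Anxa3 (0.63) for Fcgr2b. Among themselves the 5 genes were less alike, from -0.19 between Fcgr3 and Fcgr4 to 0.54 between Fcgr3 and Fcer1g. The libraries share tissue, lane and depth, and the receptors have few reads in the co-cultures, so these values are descriptions.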

How the data were processed

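The authors sequenced single reads of 50 bases from TruSeq libraries, aligned them with STAR 2.5.2b to mm10, counted them with featureCounts 1.5.1 and deposited raw counts per gene, without normalization. The annotation and strand setting of the counting are not given in the sources used here. Of 48709 identifiers per table, 48349 had a symbol in GENCODE M21. Replicate numbers and lanes were read from the library names in the labels.

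Each experiment was fitted alone in R 4.3.3 with edgeR 4.0.16 (filterByExpr, TMM factors, quasi-likelihood test, Benjamini-Hochberg adjustment over all genes tested), and all 29 libraries in 1 fit for differences between experiments. The SE was the absolute log2FC over the square root of F. CPM used the TMM-scaled library size, FPKM the exon length. Likeness used log2(CPM + 0.5). DESeq2 1.42.0, limma 3.58.1, other scalings (RLE, upper quartile, microglia markers), filters, thresholds, 1 RUVs factor, lane, a replicate block and each library left out were the alternatives. The fit was tested on simulated data.

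The genes named were the 5 receptor genes, list genes past a threshold (up to 5 per list, by p-value), genes overlapping a receptor gene, the 3 genes most alike and marker genes beside a result. Syk, Inpp5d, Spi1, Fcrls, Fcgrt, Trim21 and Fcer1a were named after their values were seen. The results of some list genes are not reported here. The genes and lists were chosen with earlier results of these data known.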

Additional observations from a re-analysis of the deposited data

Results flagged for a closer look

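Over 9 quantities in the 4 groups with 4, 7 or 8 libraries, 36 checks in all, 1 library stood far from the others in 3, where chance gives about 1 in 20. Fcgr3 in co-culture sc-control replicate 5 was at 2.56 CPM, and the other 7 controls lay between 1.36 and 1.83 CPM. Without this library the log2FC of Fcgr3 in the co-cultures was 0.66 in place of 0.56 (adjusted p = 0.0051, edgeR). The ratio of Fcer1g to the summed activating receptors (FPKM) was 3.50 in microglia sc-control replicate 2 and 3.27 to 3.28 in the other 3 controls. The same ratio was 5.71 in co-culture anti-miR-99b replicate 7, the library with the highest Fcgr3 level, and 6.75 to 7.35 in the other 6.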

How the results depend on the processing

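In the PFC the number of the 5 genes past the threshold was 0, but 1 with no filter on low counts (0.949% of all genes rose) and 0 to 1 with a library left out (0.00567% to 1.11%). The replicate block keeps the 4 PFC libraries whose number occurs in both groups, so sc-control replicate 4 is not in it, and called 5, while the genes that rose went from 0.0864% to 2.72% of all. The same libraries without the block, a setting chosen after seeing the data, gave 4 (1.71%). Equal numbers did not deviate together (correlations from -0.36 to 0.07 over 8 pairs), so they are not treated as pairs. In the microglia the count was 1 (1 with the replicate block), but 0 when scaled on microglia markers or at a log2FC beyond 0.5, 2 with 1 RUVs factor (0.789%) and 0 to 2 with a library left out (0% to 1.55%). In the co-cultures it was 1, but 3 with DESeq2 (0.976%), with no filter (0.572%) or with 1 RUVs factor (1.75%), 2 at an adjusted p-value under 0.1 and any log2FC (1.42%), 0 with the lane as a block (0.525%), with the replicate block (0.432%) or with its 8 libraries without the block (0.512%), and 0 to 2 with a library left out (0.551% to 0.977%). The tests between experiments gave 0, but 2 with no filter. Scaled on microglia markers, signs turned for Fcgr3 in the PFC (-0.018) and in the microglia (-0.018) and for Fcgr4 (-0.18) and Fcer1g (-0.10) in the co-cultures. The log2FC of Fcgr3 in the microglia also ran from -0.018 to 0.040 with a library left out. The activating to inhibitory ratio kept its direction in all 12 other settings and 29 omissions and reached an adjusted p-value under 0.05 in 0. The lowest adjusted p-value was 0.0857, in the microglia without Fcgr1 in the sum (exact permutation p = 0.0286, the smallest possible). The size of the difference moved, from -0.061 to -0.14 in the PFC and from -0.054 to -0.22 in the co-cultures with a library left out. In the co-cultures it moved to -0.018 without Fcgr4. The PFC values moved over 1.5 times without anti-miR-99b replicate 1 or sc-control replicate 2 or 3, and the co-culture value without anti-miR-99b replicate 11 or sc-control replicate 5 (-0.082). The causes were not tested. Low counts limit the co-culture values of the receptors.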
